A study of Saccharomyces cerevisiae with 48 samples.

Results

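Ethanol is both a product of and a stress for *Saccharomyces cerevisiae*. It disturbs the plasma membrane and the uptake of sugars and amino acids, and cells that meet it usually remodel their membranes, their cell wall and their carbon metabolism. The transcript response of the West African strain NCY3290 (WA) to ethanol with oxygen was measured in 4 of the 48 libraries of the series. Per the study, WA was isolated from bili wine. The 4 libraries are all that carry this strain, medium and oxygen condition on their labels. They are 2 replicates in YPD (rich medium of yeast extract, peptone and dextrose) and 2 in YPD with 4% ethanol, both in shaken flasks. Cells had grown in their medium for several generations to log phase, so the values describe growth in ethanol and not the first minutes after its addition. The same 4 libraries each of the mosaic strains Y7568 (PAP, from papaya) and IL01 (from Illinois), whose genomes mix several lineages, gave the comparison. The study names no engineered allele in these strains, and each is a single isolate. The study states that replicates were collected on different days. Levels are RPKM, reads per kilobase of gene scaled to the mapped reads of the library, and changes are differences of log2(RPKM + 0.5), which understate the change of genes with low levels.

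The mapped reads behind the scaling ran from 7761311 to 11748089 in the 12 libraries, and from 8291704 to 11633709 in the 4 of WA, so that 3 reads in a gene of 1 kb were an RPKM of 0.255 to 0.387. The nearest library of each of the 12 belonged to its own strain, and CSS3 and MAL11 had no reads in any WA library and an RPKM of at least 1 in all 8 others. The WA YPD replicates stood farther apart than the WA ethanol replicates. The SD of the log2 difference over genes was 0.524 between the former and 0.287 between the latter, and the median log2 RPKM of the YPD libraries was 4.53 and 4.13. Haploid, mating, meiotic and sporulation genes, which mark other cell states of yeast, held no call in WA (8 of 19 haploid and mating genes and 5 of 20 meiotic genes reached the level for testing).

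In WA, 78 genes rose and 19 fell in ethanol at an FDR under 1%, which is 1.39% and 0.338% of the 5619 genes tested (limma, Benjamini-Hochberg over all genes tested). The genes with the largest increases encode aromatic amino acid catabolism, high-affinity sugar uptake and a membrane protein of the Hsp30 family, and those with the largest decreases a low-affinity sugar transporter, water and ammonium channels, iron uptake and glycerol synthesis. Increases ranged from 0.75 to 6.14 on the log2 scale with a median of 1.85, and the sizes of the decreases from 0.80 to 4.34 with a median of 1.87. In each of the 97 called genes both ethanol libraries lay on the same side of both YPD libraries, as they did in 45.2% of the genes tested. The median change over all genes was -0.05. The number of calls rested on few libraries: it was 20 without WA ethanol replicate 1 and 21 without WA ethanol replicate 2, 57 and 58 without IL01 ethanol replicate 1 and 2, and 64 without either PAP ethanol library. Of the 53 named genes called in WA, 14 passed with any 1 of the 12 libraries left out. Another 20 were lost only without a WA ethanol library, and 19 also without another library. COT1 and YOR302W are among the 53, though they were named after their values had been seen.

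**Figure D1:**
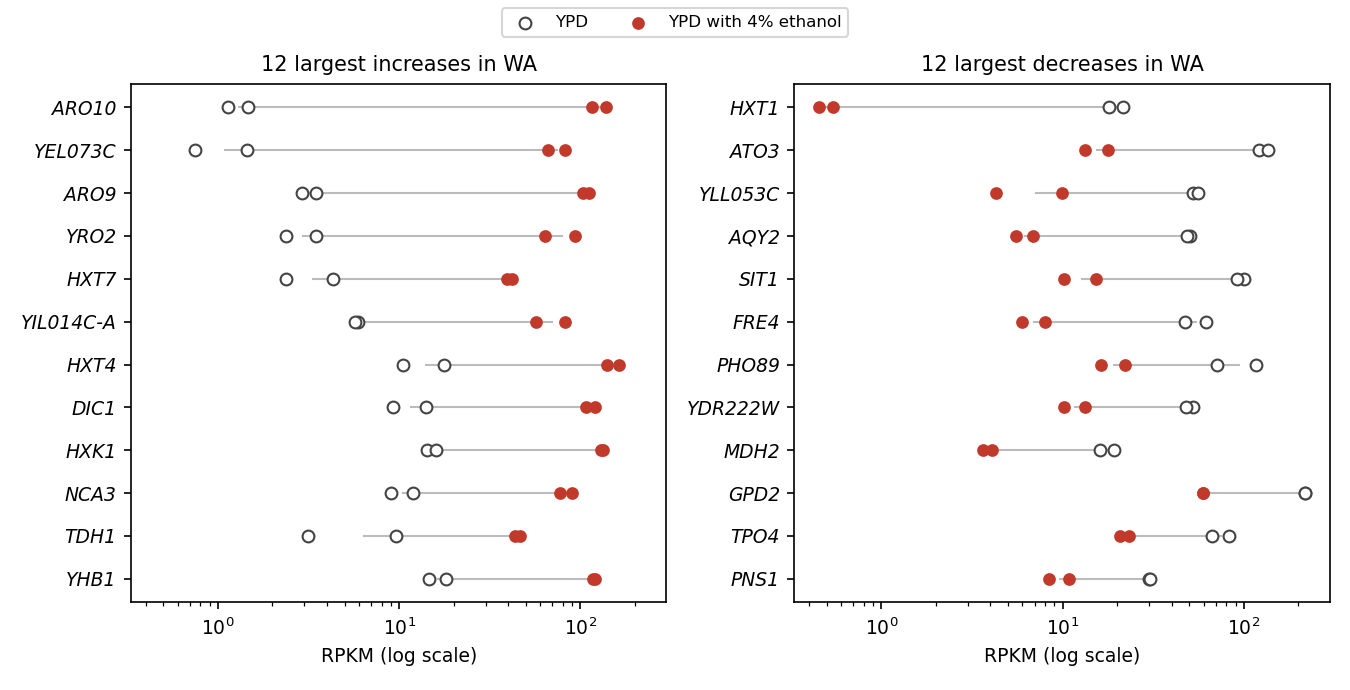
Levels in the 4 WA libraries (RPKM, log axis) of the genes with the 12 largest increases and the 12 largest decreases. Open circles are the 2 YPD replicates, filled circles the 2 replicates in 4% ethanol, and the grey line joins the group means; the groups overlap in none of the 24, from ARO10 (1.14 and 1.47 to 116 and 138) to HXT1 (18.0 and 21.5 to 0.452 and 0.543).

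The largest increase was that of ARO10 (YDR380W, chromosome IV, 1234218 to 1236125), which encodes phenylpyruvate decarboxylase. This enzyme acts in the Ehrlich pathway, by which yeast turns amino acids into fusel alcohols such as phenylethanol. ARO10 stood at 1.47 and 1.14 RPKM in YPD and at 116 and 138 RPKM in ethanol. The groups lay far apart, with a ratio of the mean levels of 97.4 (change of log2(RPKM + 0.5) 6.14, SE 0.31, adjusted p = 8.4e-06). ARO9 (YHR137W, chromosome VIII, 375709 to 377250), the aromatic aminotransferase that feeds this step, went from 3.48 and 2.89 to 103 and 112 RPKM (log2 change 4.87, SE 0.24, adjusted p = 8.4e-06). Both calls held under all 27 alternatives. Of the 12 members of the Ehrlich list tested these were the only calls, and the median of the list was 0.11. ARO80, which encodes the activator of both genes, was at 7.17 and 3.76 RPKM in YPD and 5.82 and 4.75 RPKM in ethanol (log2 change 0.01, SE 0.38), and ARO8, the other aromatic aminotransferase, changed by 0.26 (SE 0.12, adjusted p = 0.32).

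Aro80 is known to bind repeats of CCG. The letters CCGNNNNNNNCCG, in which N is any base, were searched on both strands of the S288c reference genome, since the genome of WA was not used here. The stretches before ARO9 and ARO10 that hold them are shown because these are the most induced annotated enzymes of the response. Matches are in capitals, positions are counted back from the base before the start codon, and both genes lie on the plus strand (RefSeq, build R64).
ARO9, -246 to -118, chrVIII:375463-375591: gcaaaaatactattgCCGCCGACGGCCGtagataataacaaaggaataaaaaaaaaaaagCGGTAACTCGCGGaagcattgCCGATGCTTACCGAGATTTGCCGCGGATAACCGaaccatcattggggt
ARO10, -357 to -230, chrIV:1233861-1233988: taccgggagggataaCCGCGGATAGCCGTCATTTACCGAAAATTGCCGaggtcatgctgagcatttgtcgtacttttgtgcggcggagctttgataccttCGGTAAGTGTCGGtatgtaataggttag
ARO9 holds 5 matches, 3 of which overlap (at -165, -155 and -145), and ARO10 holds 4, 3 of which overlap (at -342, -332 and -322). The letters occur in 5.33% of the 6000 promoters of 500 bases, and 5 promoters (0.0833%) hold 4 or more matches. Besides ARO9 and ARO10 these are SPL2, SDH6 and SOH1. SPL2 and SDH6 are the neighbours of ARO9 and ARO10 on the far side of the same intergenic stretches, and both rose in WA (log2 change 1.87, SE 0.29 and 2.04, SE 0.32), while SOH1 was not called. The longer window and the count of matches were chosen after the sequences had been seen. In the window set beforehand, 250 bases before to 50 after the gene start, ARO10 held no match. There the letters were in 4.05% of the 74 promoters of genes that rose and 5.56% of the 18 of genes that fell. Of all 6001 promoters 2.17% held them.

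Genes of sugar uptake changed in both directions. HXT1 (YHR094C, chromosome VIII, 290913 to 292625), a low-affinity glucose transporter of cells with ample glucose, had the largest decrease of all. It went from 18.0 and 21.5 RPKM in YPD to 0.452 and 0.543 RPKM in ethanol (log2 change -4.34, SE 0.28, adjusted p = 4.2e-05). The high-affinity transporter gene HXT7 (YDR342C, chromosome IV, 1154216 to 1155928) rose from 2.39 and 4.30 to 39.4 and 41.9 RPKM (log2 change 3.47, SE 0.29, adjusted p = 0.00016). HXT4 (YHR092C, chromosome VIII, 287081 to 288811), a transporter of higher affinity than Hxt1, rose from 10.5 and 17.6 to 163 and 140 RPKM (log2 change 3.42, SE 0.29, adjusted p = 0.00016). HXT1 and HXT4 lie close together on chromosome VIII and moved in opposite directions. The most abundant transporter genes did not pass the test. HXT3 was at 546 and 632 RPKM in YPD and 415 and 367 RPKM in ethanol (log2 change -0.59, SE 0.18, adjusted p = 0.099), and HXT2 at 452 and 629 RPKM against 654 and 601 RPKM (log2 change 0.23, SE 0.19). HXT6, whose sequence is nearly identical to that of HXT7, was between 0.422 and 1.57 RPKM in the WA libraries, and reads of this pair can be assigned to either. The 9 transporters and sensors tested held 2 increases and 1 decrease, and 10 others of the list lay below the minimum level. Calls of HXT1, HXT4 and HXT7 held under all 27 alternatives.

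Several steps of glycolysis are encoded by an abundant and a minor isoenzyme, and the calls fell on genes of such pairs. HXK1, the hexokinase gene that is low in ample glucose, rose from 14.2 and 15.9 to 131 and 133 RPKM (log2 change 3.09, SE 0.41, adjusted p = 0.0023), while HXK2, its abundant counterpart, was at 811 and 867 against 611 and 528 RPKM and was not called (log2 change -0.56, SE 0.14, adjusted p = 0.046). TDH1, a minor glyceraldehyde-3-phosphate dehydrogenase gene, was at 3.16 and 9.66 RPKM in YPD and 43.4 and 46.5 RPKM in ethanol (log2 change 2.90, SE 0.32, adjusted p = 0.00078). TDH2 rose by 0.86 (SE 0.12) and ENO1, an enolase gene, by 1.47 (SE 0.16). These 4 were the calls among 20 genes of glycolysis and fermentation, with a median over the list of 0.08, and reads of the TDH and ENO paralogs may be shared. Without a WA ethanol library none of the 4 passed, and TDH2 was lost in 7 of the 12 fits that left out 1 library. The log2 change stayed between 2.85 and 3.34 for HXK1 and between 2.28 and 3.51 for TDH1 in all alternatives.

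Carbohydrate reserve and general stress genes lay higher in ethanol as groups. The 30 genes tested of the Msn2 and Msn4 type, which respond to many stresses through a shared pair of activators, had a median of 0.92 against -0.05 over all genes, and 4 rose (HXK1, YGP1, HOR7 and SOD2) while none fell. At an unadjusted p under 0.05, 16 of the 30 were higher, where 9.50% of all genes tested were. YGP1, a secreted glycoprotein of starved cells, went from 2.74 and 4.53 to 18.6 and 37.5 RPKM (log2 change 2.74, SE 0.32, adjusted p = 0.00099). HOR7, a small membrane-associated stress protein, went from 361 and 421 to 995 and 1066 RPKM (log2 change 1.40, SE 0.19). In trehalose and glycogen metabolism 2 of 19 genes rose, the glycogen phosphorylase gene GPH1 (2.0, SE 0.30) and GAC1, which targets a phosphatase to glycogen synthase (2.80, SE 0.31), and the median was 0.82. The classical heat shock markers did not pass the test. HSP12 was at 2.12 and 3.29 against 6.25 and 5.33 RPKM (log2 change 0.99, SE 0.38, adjusted p = 0.20), a change close to the median of the stress list. HSP104 was at 42.7 and 21 against 47.8 and 40.6 RPKM (0.55, adjusted p = 0.54), and SSA4 at 4.72 and 2.88 against 4.90 and 4.02 RPKM (0.23, adjusted p = 0.80). Among 28 folding chaperones, only HSP31, a glyoxalase and chaperone, rose (1.34, SE 0.20), with a list median of 0.05. The medians of the stress and reserve lists relative to all genes were 0.97 and 0.87, and stayed between 0.63 and 1.04 and between 0.75 and 0.91 with any 1 WA library left out. YGP1 was lost without WA ethanol replicate 2, HOR7 without either WA ethanol library and HSP31 in 8 of the 12 fits that left out 1 library.

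Respiratory genes lay higher with few calls. Of 25 nuclear genes of the respiratory chain tested, only RIP1, the Rieske subunit of the cytochrome bc1 complex, rose, from 202 and 232 to 382 and 372 RPKM (log2 change 0.80, SE 0.13, adjusted p = 0.0074), and this call was lost in 11 of the 12 fits that left out 1 library. The median of the list was 0.59, and 16 of 25 were higher at an unadjusted p under 0.05, where 9.50% of all genes tested were. The 13 genes of the TCA cycle tested had no call and a median of 0.65, with 10 higher at the same unadjusted threshold. CIT1, the mitochondrial citrate synthase gene, was at 36.4 and 39.5 against 86.4 and 99.5 RPKM (log2 change 1.28, SE 0.22, adjusted p = 0.012). INH1, an inhibitor of ATP synthase hydrolysis, was the only call among 15 ATP synthase genes (57.5 and 77.1 against 146 and 157 RPKM, log2 change 1.18, SE 0.15), and the 8 mitochondrially encoded proteins had a median of 0.16 and no call. DIC1, the mitochondrial dicarboxylate carrier, rose from 14.1 and 9.28 to 108 and 120 RPKM (log2 change 3.26, SE 0.21, adjusted p = 4.2e-05) and passed under all alternatives. NCA3, which in laboratory strains affects ATP synthase subunit expression, rose from 8.99 and 11.9 to 76.8 and 90.0 RPKM (log2 change 2.95, SE 0.33, adjusted p = 0.00082). MDH2, the cytosolic malate dehydrogenase of gluconeogenesis, fell from 16.2 and 19.1 to 3.64 and 4.10 RPKM (log2 change -2.05, SE 0.21, adjusted p = 0.00052). INH1, NCA3 and MDH2 did not pass without a WA ethanol library. Relative to all genes the respiratory chain median was 0.38 without WA YPD replicate 1 and 0.72 without WA YPD replicate 2.

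Glycerol metabolism split between its isoenzymes. GPD2, the glycerol-3-phosphate dehydrogenase gene tied to redox balance, fell from 217 and 219 to 59.2 and 59.3 RPKM (log2 change -1.87, SE 0.13, adjusted p = 5.9e-05). GPP1, the abundant glycerol phosphatase gene, fell from 878 and 856 to 533 and 465 RPKM (-0.80, SE 0.12, adjusted p = 0.0061), while its stress-induced counterpart GPP2 rose from 28.7 and 27.2 to 85.4 and 80.5 RPKM (1.55, SE 0.23, adjusted p = 0.0051). GPD1, the osmotically induced counterpart of GPD2, was at 72.0 and 84.3 against 152 and 151 RPKM and did not pass (0.95, SE 0.18, adjusted p = 0.015). In each pair the osmotically induced gene was higher in ethanol than in YPD and the other lower, though the GPD1 change was not called. The genes of the superoxide dismutases, which remove superoxide, split as well. SOD1, of the cytosol, was at 887 and 960 RPKM in YPD and 546 and 456 RPKM in ethanol (-0.89, SE 0.12, adjusted p = 0.0030), and SOD2, of mitochondria, at 274 and 212 against 529 and 500 RPKM (1.09, SE 0.16, adjusted p = 0.0051). YHB1, a flavohemoglobin that removes nitric oxide, rose from 18.2 and 14.7 to 120 and 118 RPKM (2.82, SE 0.28, adjusted p = 0.00051), and the peroxidase gene GPX2 fell from 130 and 120 to 49.4 and 47.4 RPKM (-1.36, SE 0.14, adjusted p = 0.00070). These were the calls among 25 defence genes. Only the GPD2 call passed with any library left out; GPP1 was lost in 10 of the 12 such fits, SOD2 in 9, GPP2 in 6, SOD1 in 5, and YHB1 and GPX2 without either WA ethanol library.

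Genes of membranes and the cell surface were called in both directions, and of those that rose YRO2 was among the 12 largest increases. YRO2 (chromosome II, 343101 to 344135) and MRH1 encode related membrane proteins of the Hsp30 family. YRO2 rose from 2.37 and 3.50 to 64.2 and 93.8 RPKM (4.53, SE 0.32, adjusted p = 5.8e-05) and MRH1 from 148 and 159 to 485 and 431 RPKM (1.57, SE 0.13, adjusted p = 0.00014). The gene of the proton pump, PMA1, was between 4593 and 5550 RPKM in all 4 libraries with a change of 0.04 (SE 0.12). FAA1, a fatty acid activating enzyme, rose from 30.1 and 26.9 to 168 and 195 RPKM (2.65, SE 0.27, adjusted p = 0.00052), and ACC1, the acetyl-CoA carboxylase that starts fatty acid synthesis, from 446 and 432 to 952 and 990 RPKM (1.14, SE 0.16, adjusted p = 0.0040). None of 25 ergosterol genes passed; their median was -0.37, and 12 were lower at an unadjusted p under 0.05, where 7.33% of all genes were. Of 20 cell wall mannoprotein genes, TIP1 (2.40 and 2.67 to 22.9 and 18.0 RPKM; 2.78, SE 0.21), CWP2 (281 and 297 to 650 and 675 RPKM; 1.19, SE 0.12) and YGP1 rose. Among exporters the polyamine transporter genes TPO1 and TPO4 went opposite ways, TPO1 by 1.24 (SE 0.15) and TPO4 by -1.74 (SE 0.25). FAA1, ACC1 and TPO1 did not pass without a WA ethanol library, ACC1 also not without an IL01 ethanol library, and CWP2 not without WA ethanol replicate 2. TPO4 was lost in 6 of the 12 fits.

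The remaining large decreases concerned water, ammonium, iron and phosphate. AQY2 and YLL053C, 2 overlapping reading frames that form an aquaporin gene on chromosome XII (35503 to 36361), fell together, AQY2 from 50.6 and 48.8 to 6.88 and 5.51 RPKM (-2.91, SE 0.24, adjusted p = 0.00016) and YLL053C by 2.95 (SE 0.31). ATO3, a plasma membrane protein of ammonium export, fell from 122 and 136 to 17.7 and 13.2 RPKM (-3.03, SE 0.30, adjusted p = 0.00050). SIT1, a siderophore transporter, fell from 101 and 91.5 to 10.2 and 15.2 RPKM (-2.89, SE 0.24, adjusted p = 0.00016), and FRE4, a ferric reductase for siderophores, from 61.9 and 47.4 to 8.0 and 5.93 RPKM (-2.89, SE 0.25, adjusted p = 0.00016). Iron uptake genes did not fall as a group, since these were the only calls among 25 and the list median was 0.13. FET3, the multicopper oxidase of reductive iron uptake, was at 228 and 208 against 145 and 156 RPKM and was not called (-0.53, SE 0.17, adjusted p = 0.14). PHO89, a sodium and phosphate cotransporter, fell from 71.1 and 117 to 22.2 and 16.3 RPKM (-2.23, SE 0.34, adjusted p = 0.0061), whereas SPL2, which lowers low-affinity phosphate uptake, rose from 3.66 and 4.86 to 17.9 and 15.7 RPKM. Of the 12 largest decreases, 5 (HXT1, AQY2, SIT1, FRE4 and GPD2) passed with any library left out. ATO3 and YDR222W, an uncharacterized gene that fell from 52.4 and 48.0 to 13.2 and 10.2 RPKM (-2.06, SE 0.26), were lost without either WA ethanol library, and YLL053C without WA ethanol replicate 2. PNS1, a membrane protein of the choline transporter-like family, was lost in 9 of the 12 fits, PHO89 and SPL2 in 8.

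Genes of amino acid use were called in both directions. CAR1 and CAR2, arginase and ornithine transaminase, rose by 0.75 (SE 0.12) and 1.75 (SE 0.26), and PUT1, proline oxidase, by 1.78 (SE 0.27), which are the 3 calls among 20 genes of ammonium uptake and nitrogen catabolism. In arginine synthesis, CPA1, a subunit of carbamoyl phosphate synthetase, rose from 129 and 116 to 236 and 321 RPKM (1.17, SE 0.17, adjusted p = 0.0047). YOR302W, the short reading frame in the CPA1 leader whose peptide is known to restrain CPA1, rose with it (1.35, SE 0.17), and ARG1, argininosuccinate synthetase, fell from 53.8 and 56.1 to 28.2 and 25.4 RPKM (-1.02, SE 0.16, adjusted p = 0.0061). The amino acid permease genes TAT1 (1.37, SE 0.15) and BAP2 (0.81, SE 0.13) and the leucine synthesis gene LEU2 (0.91, SE 0.14) rose as well. CAR1, BAP2, LEU2 and ARG1 were lost in 10 of the 12 fits that left out 1 library, PUT1 in 9, CPA1 in 5 and CAR2 in 4, and TAT1 and YOR302W without a WA ethanol library. CAR2 was not called without the replicate block.

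Ribosomal genes lay lower without a call. None of 137 cytosolic ribosomal protein genes passed. Their median was -0.44 and their changes ran from -0.98 to 0.28. Of the 137, 106 were lower at an unadjusted p under 0.05, where 7.33% of all genes tested were. The summed level of the 137 was 381900 and 379900 RPKM in YPD and 314600 and 256400 RPKM in ethanol. The lowest sum is that of ethanol replicate 2. There 70.55% of mapped reads lay in genes whose whole reads could be recovered, against 80.21% in ethanol replicate 1. Whether this lowered the sum was not tested. Relative to all genes this median was -0.39, but -0.07 after quantile normalization, so the shift of these abundant genes depended on the scale. The 54 genes of ribosome biogenesis had a median of -0.50 and no call, and -0.45 relative to all genes on either scale. With 1 WA library left out it lay between -0.72 and -0.27.

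**Figure D2:**
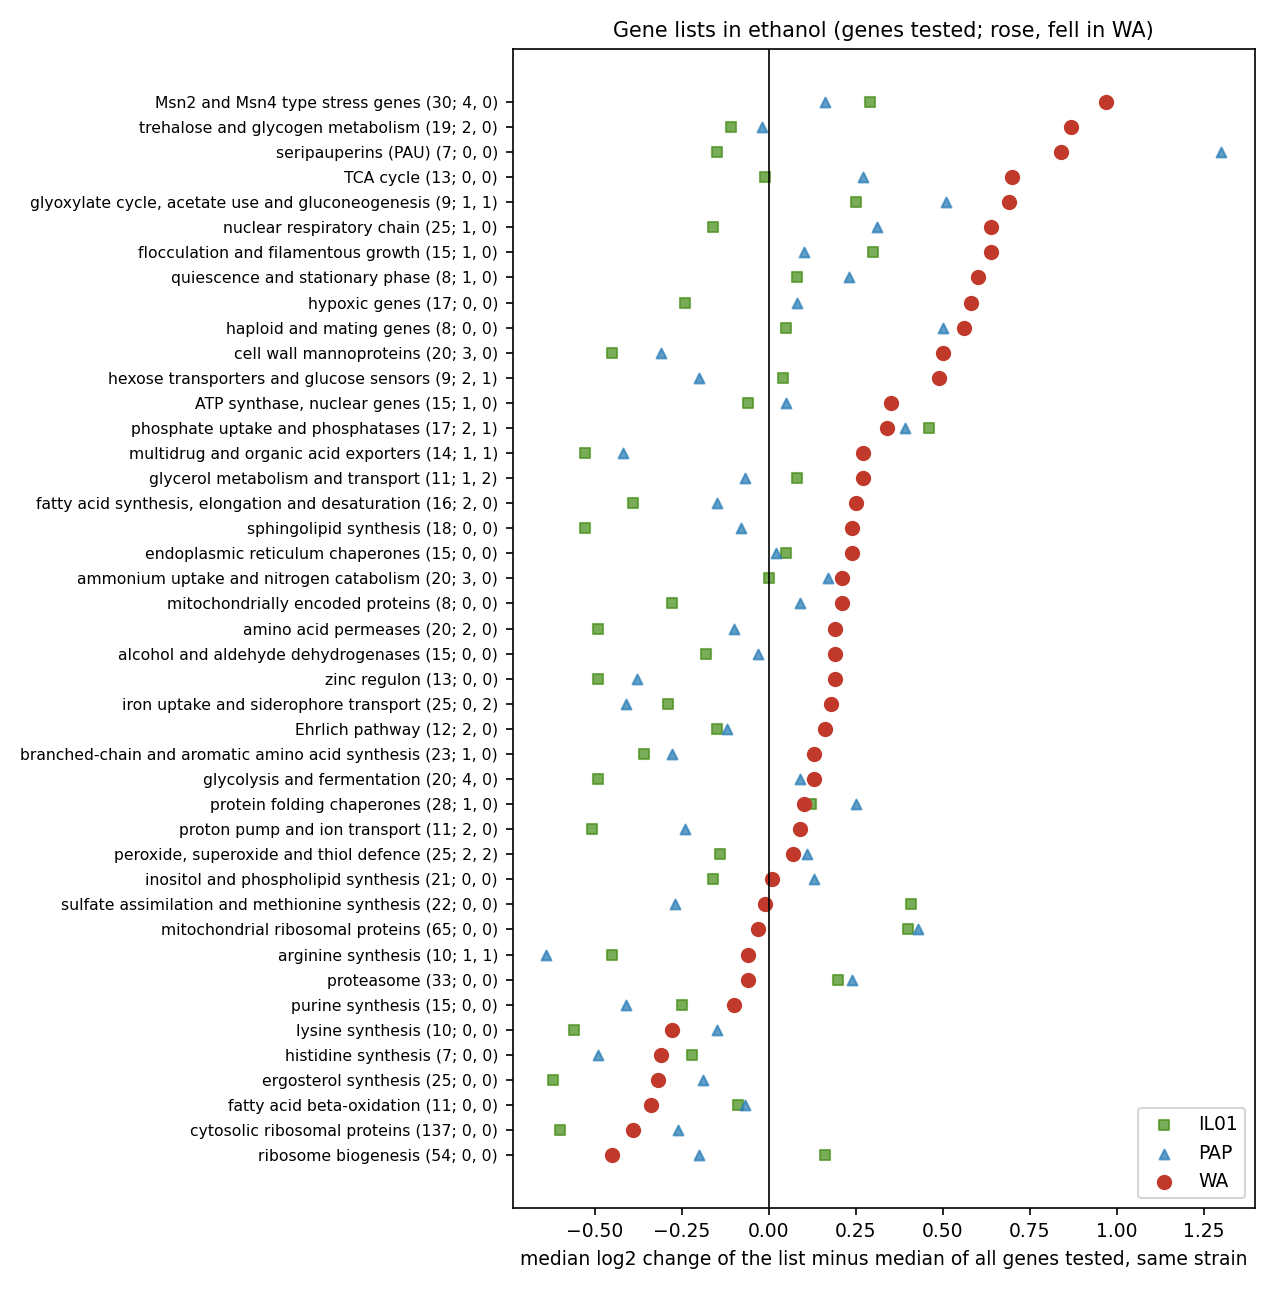
Median log2 change in ethanol of each list with at least 7 genes tested, minus the median of all genes tested in the same strain (43 lists; circles WA, triangles PAP, squares IL01). Counts behind each name are genes tested and genes that rose and fell in WA; in WA the stress list stood highest at 0.97 and ribosome biogenesis lowest at -0.45, and no difference between strains was tested for a list.

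The same contrast was fitted in the other strains. In PAP 44 genes rose (0.783%) and 10 fell (0.178%), and in IL01 101 rose (1.80%) and 24 fell (0.427%). Of the 78 genes that rose in WA, 23 were called in PAP (29.5% of the WA genes and 52.3% of the PAP genes) and 32 in IL01 (41.0% and 31.7%). Of the 19 that fell, 5 were called in PAP (26.3% and 50%) and 10 in IL01 (52.6% and 41.7%). No gene called in WA was called in the opposite direction in another strain. In all 3 strains 18 genes rose, among them ARO10, ARO9, DIC1, NCA3, FAA1, ENO1, GPP2, SOD2, MRH1, CWP2, HSP31 and SPL2, and 5 fell, HXT1, ATO3, GPD2, MDH2 and PNS1. A further 41 increases and 9 decreases passed in WA and in neither other strain, which does not show that those responses differ. Changes over all 5619 genes correlated between WA and PAP at Pearson's r of 0.435 (Spearman's rho 0.274), between WA and IL01 at 0.298 (0.073) and between PAP and IL01 at 0.582 (0.569), across genes that share their libraries. The median change of all genes was 0.16 in PAP and 0.52 in IL01. Changes are given as fitted, and values relative to these medians follow where the shift alters them. After each library was centred on its median, 40 genes rose and 31 fell in IL01 and 46 and 9 in PAP, and after quantile normalization 52 and 47 in IL01 and 48 and 23 in PAP.

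**Figure D3:**
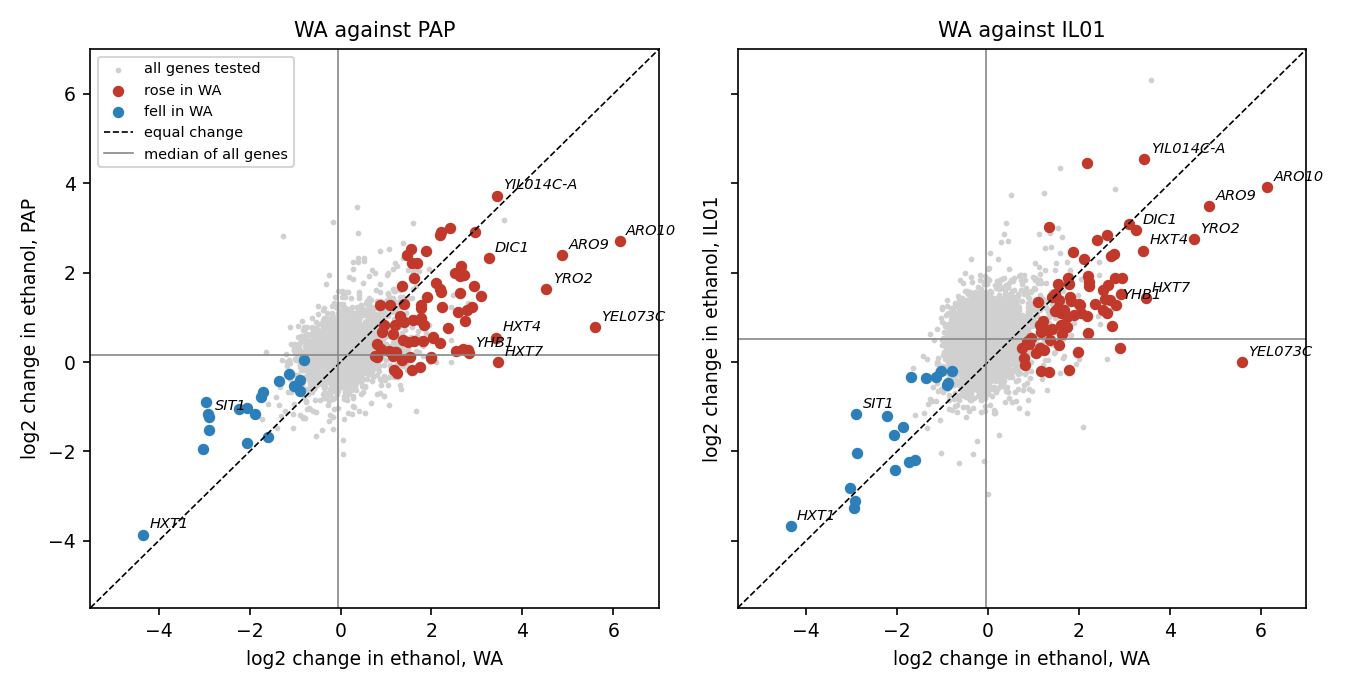
Log2 change in ethanol of each gene in WA (horizontal) and in PAP or IL01 (vertical). Red and blue points are the 78 and 19 genes that rose and fell in WA, grey points all other genes tested, grey lines the medians (-0.05 in WA, 0.16 in PAP, 0.52 in IL01) and the dashed line equal change. ARO10, YRO2, YEL073C and HXT7 lie below that line in both panels. For 3 of these the position is in part set by few or no reads. YEL073C had none in IL01, and HXT7 was at or below 0.179 RPKM in PAP. YRO2 went from 0.0986 and 0.0823 to 1.17 and 1.48 RPKM in PAP, where log2(RPKM + 0.5) understates the change.

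When the difference itself was tested, the WA response minus the mean of the other responses passed for no gene (0% of 5619, limma, FDR under 1%), while 1083 genes had an unadjusted p under 0.05. Of these 885 were lower in WA and 198 higher, and the median difference over all genes was -0.38. Differences below are as fitted. Those from the mean of the other strains lie 0.38 higher relative to all genes. For differences from PAP alone and from IL01 alone, the median over all genes was -0.227 and -0.532. The count depended on the WA YPD libraries. It was 8 without WA YPD replicate 1 and 852 without WA YPD replicate 2, 817 of them lower in WA, and 1 without PAP ethanol replicate 1, PAP ethanol replicate 2 or IL01 ethanol replicate 2. At an FDR under 5%, 11 genes (0.196%) differed, and they are named here because of that, after their values had been seen. In 8 of them the WA response was the higher. ARO10 had a response larger by 2.83 (SE 0.38, adjusted p = 0.029) and ARO9 one larger by 1.93 (adjusted p = 0.040). In YPD ARO10 stood at 1.07 and 0.849 RPKM in PAP and 0.270 and 0.770 RPKM in IL01, and in ethanol at 7.90 and 10.2 and at 11.9 and 17.5 RPKM. All 3 strains raised it, and the ethanol libraries of WA lay above all others. ARO9 likewise reached 31.1 and 34.8 RPKM in PAP and 44.0 and 56.6 RPKM in IL01, from 6.09 and 5.58 and from 4.68 and 3.42 RPKM.

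HXT7 responded more in WA by 2.75 (SE 0.36, adjusted p = 0.029). In PAP it was at or below 0.179 RPKM in all 4 libraries, under the level of 3 reads in 1 kb, and in IL01 at 16.6 and 21.4 against 45.4 and 58.8 RPKM. With PAP at this floor in both media the difference is in part fixed by the lack of reads, and against IL01 alone it was 2.04 (SE 0.41, adjusted p = 0.12). HXT4 was at 16.6 and 18.9 against 32 and 21.1 RPKM in PAP and at 18.5 and 22.6 against 134 and 102 RPKM in IL01, and its difference did not pass (1.90, adjusted p = 0.086). HXT1 fell by 3.86 in PAP and by 3.66 in IL01 on the log2 scale (-4.02 and -4.18 relative to the median of all genes, and -4.29 in WA). The difference of the WA response was -0.58 (limma, adjusted p = 0.32). In ethanol HXT1 was at 0.452 and 0.543 RPKM in WA, 1.77 and 1.59 RPKM in PAP and 3.37 and 2.2 RPKM in IL01. The WA levels lie near the 0.5 added before the log. The WA fall is thus understated most, and the comparison is limited by this floor. In the alternatives the WA change ran from -5.31 to -3.12. YEL073C, an uncharacterized reading frame near the end of chromosome V (7230 to 7553), rose in WA from 1.44 and 0.744 to 82.5 and 66.7 RPKM (5.59, SE 0.52). It had no read in any IL01 library and between 0.526 and 3.42 RPKM in PAP. It is counted among the 11, but without reads in IL01 its difference from the mean of both strains is no comparison of responses. Against PAP alone the difference was 4.80 (SE 0.74, adjusted p = 0.045). Its WA call was lost without WA ethanol replicate 1. YIL014C-A, an uncharacterized gene on chromosome IX, rose in every strain, from 5.93 and 5.74 to 81.9 and 57.1 RPKM in WA (3.44, SE 0.27, adjusted p = 9.9e-05). It reached 45.0 and 40.8 RPKM in PAP and 31.4 and 30.1 RPKM in IL01, and its WA call held under all 27 alternatives.

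COT1, a vacuolar transporter of zinc and cobalt, rose in WA from 17.1 and 16.4 to 63.4 and 72.7 RPKM (1.99, SE 0.22) and was at 43.6 and 31.4 against 33.4 and 46.4 RPKM in PAP and at 29.5 and 30.6 against 32.3 and 38.8 RPKM in IL01 (difference 1.82, adjusted p = 0.040). Its WA call was lost without either WA ethanol library. TPO1, CPA1 and YOR302W complete the genes with the higher WA response, with differences of 1.23, 1.36 and 1.43 (adjusted p = 0.040, 0.044 and 0.040). In these 3 and in COT1 neither other strain was called. As fitted, their changes in PAP and IL01 lay between -0.26 (TPO1 in PAP) and 0.28 (TPO1 in IL01), and relative to the median of all genes between -0.73 (YOR302W in IL01) and -0.07 (COT1 in PAP). YHB1 was named by its WA rise. It stood between 813 and 1090 RPKM in all PAP libraries and between 0.537 and 3.56 RPKM in those of IL01, so WA held the middle level, and its difference did not pass at an FDR under 5% (2.09, adjusted p = 0.058).

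In 3 genes the WA response was the lower. PHD1, a regulator of filamentous growth, was already at 43.1 and 39.1 RPKM in WA YPD and at 67.6 and 50.5 RPKM in WA ethanol (0.51, SE 0.28, not called). In PAP it went from 10.6 and 5.26 to 37.8 and 41.7 RPKM, and in IL01 from 2.58 and 3.06 to 53.8 and 35.8 RPKM. The 3 strains thus came close in ethanol and differed in YPD (difference -2.53, adjusted p = 0.029). MMO1, the short reading frame just before PHD1 on chromosome XI, gave the same order (difference -2.32, adjusted p = 0.029), and the reads of the pair may not be independent. YFL051C, an uncharacterized flocculin-like reading frame at the end of chromosome VI (30058 to 30540), was at 63.4 and 84.4 against 32.6 and 27.6 RPKM in WA (-1.27, SE 0.27, adjusted p = 0.027) and at 8.67 and 9.18 against 67.3 and 64 RPKM in PAP (2.81, adjusted p = 0.00061). It was the only gene whose response passed the test between WA and PAP (0.0178% of genes; difference -4.08, adjusted p = 0.0063), and none passed between WA and IL01 (0%). This call was lost in 8 of the 12 fits that left out 1 library, with adjusted p-values up to 0.15, and also without the trend, without the filter on low values, with either other scaling and with weights from the reads, 13 of 26 alternatives in all. The difference stayed between -4.44 and -3.72. Reads of flocculin-like genes may be shared.

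**Figure D4:**
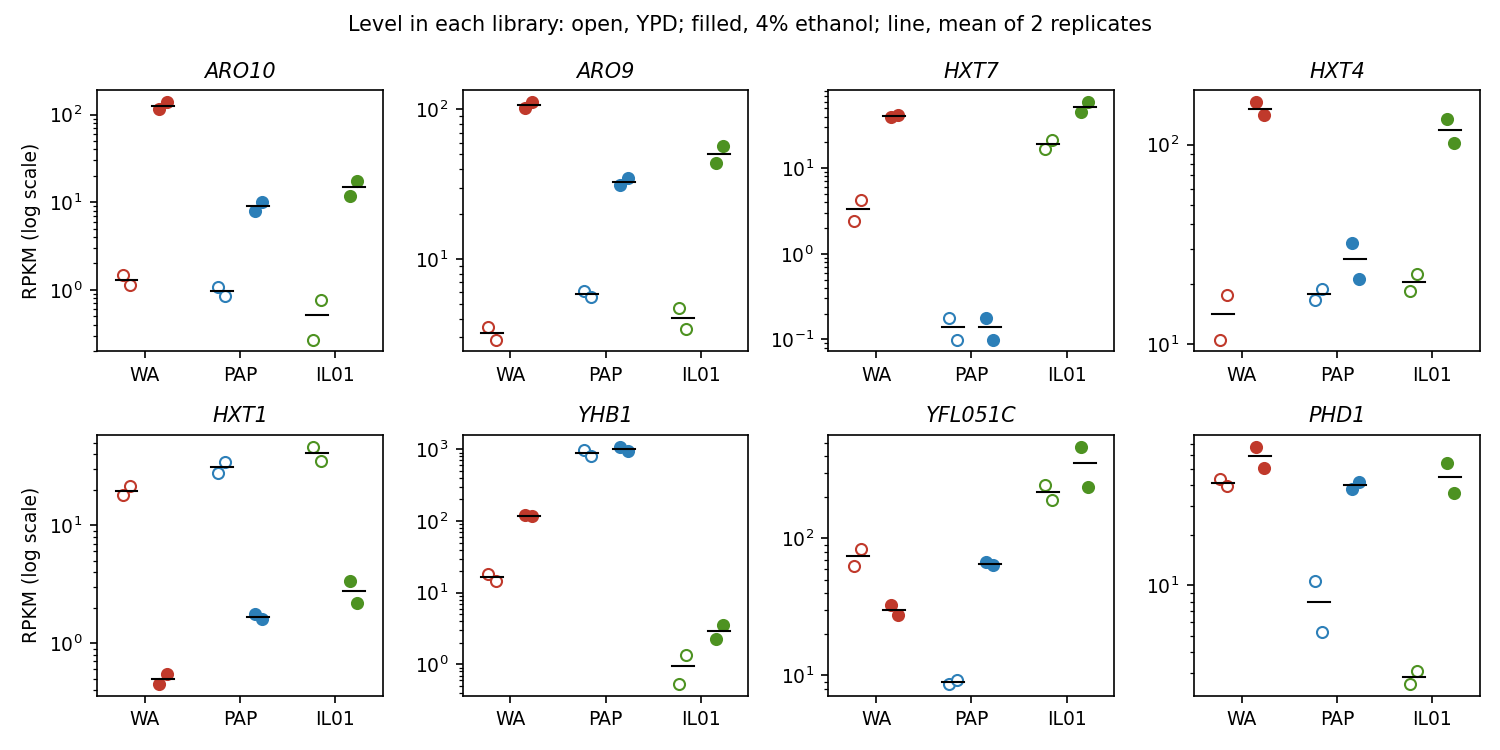
Level of 8 genes in each of the 12 libraries (RPKM, log axes that differ between panels; open circles YPD, filled circles 4% ethanol, lines the means of 2 replicates). ARO10 and ARO9 rose in every strain and highest in WA (116 and 138 RPKM for ARO10), YHB1 kept far apart between strains, and PHD1 differed in YPD and lay close in ethanol.

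Sizes were compared for the genes called in WA, whose choice by the WA contrast makes larger WA values likely in advance. For the 78 that rose, medians of the change were 1.85 (WA), 0.94 (PAP) and 1.23 (IL01), and for the 19 that fell -1.87, -1.03 and -1.46. In 73 of the 78 the change was positive in PAP and in 73 in IL01, and of the 19 it was negative in 18 and in 19. Relative to the median of all genes in each strain, the medians for the 78 were 0.77 (PAP) and 0.72 (IL01) and those for the 19 -1.19 and -1.97, so that the IL01 decreases were then as large as those of WA, and the increases kept their sign in 66 (PAP) and 61 (IL01). These counts include genes far from the threshold in the other strains and carry no test.

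Stress response elements were searched in the promoters of the called genes, from 250 bases before to 50 after the gene start on both strands of R64. AGGGG, bound by Msn2 and Msn4, was in 32.4% of the 74 promoters of genes that rose and 33.3% of the 18 of genes that fell, against 21.6% of all 6001 promoters. GAANNTTC, of the heat shock factor, was in 18.9% and 5.56% against 11.8%, CACCC, the core of the Aft1 site, in 24.3% and 38.9% against 20%, and GATGAG, of ribosome biogenesis genes, in 10.8% and 22.2% against 20.4%. CCAAT was in 47.3% and 27.8% against 43.3%, and CCNNNNNNGG in 37.8% and 44.4% against 29.2%. Among 6 short motifs that were searched besides, TGACTCA was in 4.05% of promoters of genes that rose (2.73% of all), CATGTG in 4.05% (6.93%), CACGTG in 2.70% (2.92%), TCGTATA in 8.11% (4.15%), GGTGGC in 5.41% (6.93%) and CATTC in 40.5% (46.4%). These shares rest on few promoters, and a match is a run of letters and not a site.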

How the data were processed

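RNA was sequenced as 100-base single reads from rRNA-depleted, stranded libraries. Per the methods the authors trimmed reads with Trimmomatic, aligned them with BWA to the S288c genome (R64), summed them over genes with HTSeq, and the log2 RPKM values they deposited were used (a gene without reads is 0). The strand setting of HTSeq is not given in the sources used here, so overlapping and antisense genes are uncertain. The 12 aerobic YPD and ethanol libraries were used. RPKM was 2 to the power of the deposited log2 value, with 0 read as no reads. Whole reads were recovered for 6012 of 6713 identifiers (89.56%, within 0.01 reads plus a share of 2e-05 of the reads). Of the identifiers, 691 matched no RefSeq gene and were kept under their own names, and 4 table lines without values were left out. The 5619 genes whose RPKM averaged 1 or more were fitted on log2(RPKM + 0.5) with limma 3.58.1 under R 4.3.3, with a trended empirical Bayes prior, 6 groups and the replicate number as a block, since the study analysed its replicates as pairs. Adjusted p-values come from this test at FDR under 1%. Deviations of same-numbered libraries from their group means correlated between -0.436 and 0.448 (median 0.037). Replicates are biological duplicates collected on different days per the methods, and p-values measure the spread between these libraries.

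Named genes are the 12 largest increases and 12 largest decreases in WA among called genes whose sign held in both replicate numbers and whose WA libraries averaged an RPKM of 10 or more, besides at most 4 called members of each of 44 gene lists at that level, and the largest differences between strains. Members and lists were chosen with earlier results of these data known, so counts over a list are descriptions. Other genes are given as background to a list or were chosen after their values were seen. Alternatives were other blocks, pseudocounts, filters, scales and weights, 24 libraries, WA alone, FDR under 5% and leaving out each library. The fit was tested on simulated data in which noise was independent between genes and between libraries. Shifts of a whole library were not simulated, so the simulation does not bear on them.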

Additional observations from a re-analysis of the deposited data

Results flagged for a closer look

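YFL051C had a lower level in ethanol in WA, where it was not called (-1.27, limma, adjusted p = 0.027), and rose in PAP, and the difference between the responses passed the test (log2 difference -4.08, limma, adjusted p = 0.0063, both replicate pairs of each strain on its own side). The call was lost in 8 of the 12 fits that left out 1 library and in 5 other alternatives. Against IL01 its response as fitted had the opposite sign in both pairs (difference -1.90), which did not pass the test. Relative to the median of all genes, the change was 0.11 in IL01 and -1.22 in WA. For TPO1 (1.49) both WA pairs were higher in ethanol and both PAP pairs lower, and for CPA1 (1.37) both WA pairs were higher and both IL01 pairs lower. These differences did not pass at an FDR under 1%.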

How the results depend on the processing

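None of the 53 named calls changed sign in the 27 alternatives, 13 passed in all of them, and 18 were lost when each library was centred on its median. The 97 WA calls (78 rose, 19 fell) became 177 (128, 49) with the replicate block within each strain, 63 (50, 13) with no filter on low values, 266 (187, 79) with all 24 aerobic libraries, 29 (23, 6) with the WA libraries alone, 274 (189, 85) at an FDR under 5% and 142 (103, 39) after quantile normalization, and lay between 20 and 124 (14 to 95 rose, 5 to 43 fell) with 1 library left out. Without the replicate block 112 were called, 94 of them shared. Centring each library gave 93, of which 68 were shared with the 97. The split of calls moved from 80.4% higher to between 65.3% and 82.8%. The differences between WA and the other strains, none in the main fit, became 6 with the replicate block within each strain, 6 at a pseudocount of 2, 3 with no filter, 9 after quantile normalization, 3 after centring (ARO10, YEL073C and YHB1), 13 with 24 libraries and 11 at an FDR under 5%, and lay between 0 and 852 with 1 library left out. With centring and the replicate block within each strain together, an alternative chosen after seeing the data, 18 differed and 140 WA genes were called. The cause of these changes was not tested. With 1 library left out a group of 1 is assumed to vary like the others. Depth limits genes below an RPKM of about 0.387, and the number of replicates, 2 per group, limits all calls.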

Other observations

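Several genes of regulators were called in WA. Apart from HMS1, a member of the list of flocculation and filamentous growth, the genes of this paragraph lie outside the lists and were named after their values were seen. MSN4, an activator of the general stress response, rose from 6.05 and 5.92 to 33.2 and 32.6 RPKM (log2 change 2.37, SE 0.33, limma, adjusted p = 0.0032). MTH1, which represses hexose transporter genes when glucose is low, rose from 2.33 and 1.57 to 16.6 and 14.4 RPKM (2.72, SE 0.34), and MIG3, a gene of the glucose repressor family, fell from 8.97 and 6.92 to 2.18 and 2.01 RPKM (-1.70, SE 0.27). The transcription factor genes ZNF1 (2.93), RPI1 (2.62), MAL33 (2.58), ACA1 (2.53), HMS1 (2.40) and RSF2 (1.48) rose too. Of these, MTH1 and RPI1 were also called in IL01, ACA1 in PAP and HMS1 in both. Among single genes of other roles, the vacuolar protease genes PEP4 and PRB1 rose, with other vacuolar proteases not counted. PEP4 went from 190 and 227 to 432 and 440 RPKM (1.07, SE 0.16) and PRB1 from 26.1 and 15.6 to 55.2 and 63.9 RPKM (1.53, SE 0.22). The aryl-alcohol dehydrogenase family genes AAD6 (2.68) and AAD10 (2.19), close paralogs, rose with them. SPO24 was the most abundant of the strongly induced genes outside the lists, at 235 and 272 against 1488 and 1634 RPKM (2.62, SE 0.17).

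Of the 5028 neighbouring pairs on a chromosome in which both genes were tested, 8 (0.159%) had both genes called. Of the tested genes with a position, 1.74% were called, but this is a share of genes and not of pairs. It is therefore no expected value for the share of pairs. The pairs hold 15 of the 94 called genes with a position. Both members rose in 6 pairs and both fell in 2, and 80.4% of all calls were increases. No test was made of these counts. The pairs counted are TIP1 with BAP2 and BAP2 with TAT1 on chromosome II, PST2 with MRH1 and SDH6 with ARO10 on IV, SPL2 with ARO9 on VIII, YLL053C with AQY2 on XII, and GPD2 with ARG1 and YOR302W with CPA1 on XV. YLL053C and AQY2 overlap, and YOR302W lies in the CPA1 leader. The called identifiers YFL057C, YDR133C and YBR191W-A had no position and could not be counted. By their systematic names, YFL057C is next to AAD6 (YFL056C) and YDR133C next to CCW22 (YDR134C), and all of these rose.

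In WA ethanol replicate 2, 70.5% of mapped reads lay in genes whose reads were recovered, against 76.4% to 82.4% in the 11 other libraries.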
